A study of Mus musculus with 50 samples.

Results

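The genes described here encode the machinery that fuses synaptic vesicles with the plasma membrane: Snap25, Stx1a, Vamp1 and Vamp2 (the SNAREs), Syt1 (the calcium sensor), Cplx1 and Cplx2 (the complexins) and Unc13a (a priming factor). They were followed through the chromatin accessibility peaks that overlap the span of any of these 8 genes or lie within 2 kb of it, which were 163 of 144465 merged peaks. Syt1 held 107 of them, Snap25 18, Cplx2 16, Stx1a 8, Unc13a 7 and Cplx1 5, and Vamp1 and Vamp2 held 1 each. The assay was ATAC-seq, where a transposase cuts open DNA and tags it for sequencing. The nuclei were NeuN+, a neuronal marker, and came from 1 side of the ventral hippocampus. All mice were male C57BL/6JRj, born to dams of a single breeding population that had been spread over 5 rearing facilities (RF1 to RF5), which are the groups compared. At time point 1 (TP1) a mouse was killed in its RF at 8 weeks of age, and at TP2 a littermate not used in tests was killed in the common test laboratory at 14 weeks by the labels. There were 5 libraries for each RF and TP, 50 in all, each from 1 mouse, and every library carries the treatment label hexane (freezing condition).

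SNARE proteins work as a zipper. Vamp1 and Vamp2 sit on the vesicle, syntaxin 1A (Stx1a) and SNAP-25 (Snap25) on the plasma membrane, and their helices wind into a bundle that pulls the membranes together. Munc13-1 (Unc13a) opens syntaxin to prime vesicles, complexins bind the assembling bundle and act on its release, and synaptotagmin 1 (Syt1) binds calcium and triggers fast release. Accessibility of a gene's promoter is not a measure of the amount of its transcript or protein.

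Each of the 8 genes had a promoter peak over its start site, and these peaks carry the main results. The RefSeq promoter table (GRCm38.p6) held the start sites of 6 of the 8. The promoters of Syt1 and Cplx2, like that of Snap25, were called lower in RF4 at TP1 under every alternative run. With the main fit 62.6% of all protein-coding promoters were called lower in RF4 at TP1. Stx1a peaks were lower in RF1 where those of Syt1 were higher, and Unc13a had the promoter peak with the most counts. For Syt1, Stx1a, Cplx2 and Unc13a the 250 bases upstream of a start in the RefSeq promoter table are shown. They are written 5′ to 3′ on the strand of the gene, and capitals mark matches on either strand to the GC box GGGCGG, to the motif known as the CCAAT box, to the cyclic AMP response element half-site TGACG or to the TATA box TATAAA.
Syt1: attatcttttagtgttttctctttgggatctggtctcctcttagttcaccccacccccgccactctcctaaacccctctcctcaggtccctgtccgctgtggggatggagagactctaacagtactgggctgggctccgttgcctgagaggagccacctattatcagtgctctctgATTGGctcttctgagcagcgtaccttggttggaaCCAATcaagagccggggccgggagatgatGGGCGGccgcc
Stx1a: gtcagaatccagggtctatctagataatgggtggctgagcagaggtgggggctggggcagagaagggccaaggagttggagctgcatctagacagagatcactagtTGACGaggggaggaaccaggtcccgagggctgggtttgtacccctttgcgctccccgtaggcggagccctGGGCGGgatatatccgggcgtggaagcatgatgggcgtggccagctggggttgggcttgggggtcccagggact
Cplx2: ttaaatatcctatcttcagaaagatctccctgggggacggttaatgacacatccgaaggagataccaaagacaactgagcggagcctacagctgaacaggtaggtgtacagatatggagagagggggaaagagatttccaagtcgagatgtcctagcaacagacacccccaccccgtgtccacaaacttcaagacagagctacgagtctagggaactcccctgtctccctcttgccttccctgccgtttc
Unc13a: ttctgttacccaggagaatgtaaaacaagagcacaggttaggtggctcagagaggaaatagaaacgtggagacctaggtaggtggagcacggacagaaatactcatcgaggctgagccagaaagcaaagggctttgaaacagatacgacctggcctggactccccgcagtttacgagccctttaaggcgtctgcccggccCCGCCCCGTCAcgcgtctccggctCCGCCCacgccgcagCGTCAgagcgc
The Syt1 sequence lies at chr10:109010976-109011225 and that of Unc13a at chr8:71671758-71672007, both on the minus strand. Those of Stx1a at chr5:135023232-135023481 and Cplx2 at chr13:54302306-54302555 are on the plus strand. The Cplx2 gene begins at chr13:54301964, so its window lies inside the gene, upstream of a later start. The GC box was found in 5 of the 6 sequences, all but Cplx2, where 32.7% of the 32851 promoters of the table hold it. Matches to the CCAAT box were found in Syt1 and Vamp1 (33.8% of all promoters) and to the response element half-site in Stx1a and Unc13a (17.8%). No match to the TATA box was in any of the 6 (12.4% of all promoters), and the Cplx2 window held none of these letters. G and C made up 50.4% of the bases in Vamp1 and 64.8% in Cplx1, the lowest and highest of the 6, beside a median of 52.4% over all promoters.

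Libraries held 33663505 to 77396321 counts at TP1 and 5111223 to 36401717 at TP2. At TP1 all 25 libraries were closest to a library of their own RF. At TP2 this held for 22 of 25, and RF1 replicates 3 and 5 and RF2 replicate 5 were closest to a library of another RF. In 20 pairs of libraries of a group the counts differed by no more than sampling noise. Such libraries were counted as 1 sample in each mean ± SD, which leaves 3 to 5 samples per group. In 7 more pairs, all at TP2, libraries labelled with different RFs differed by no more than that either: RF1 replicate 3 from RF2 replicates 1, 2, 3 and 4, RF1 replicate 5 from RF2 replicate 5, and each of these last from RF5 replicate 3. Every one of the 7 pairs holds at least 1 of the 3 libraries closest to another RF. At TP2 RF1 replicate 3 had the fewest counts of all libraries, 5111223, and RF2 replicate 3 had 7287029. All 7 neuronal marker genes had a promoter peak, and their summed normalised read count at the promoters (in CPM, counts scaled to library size) had medians from 263 in RF4 to 313 in RF1 at TP1 and from 241 in RF3 to 289 in RF1 at TP2. All 5 astrocyte markers had one too, with medians from 19.7 in RF5 to 32.3 in RF1 at TP1 and from 22.6 in RF4 to 29.6 in RF2 at TP2. The 5 of 8 oligodendrocyte lineage markers with one ran from 32.5 in RF4 to 43.6 in RF3 at TP1 and from 29.7 in RF3 to 37.2 in RF1 at TP2. The 4 of 6 microglial markers with one ran from 28.1 in RF1 to 34.9 in RF4 at TP1 and from 28.9 in RF5 to 34.001 in RF1 at TP2. Neuronal markers had the reverse at TP1, highest in RF1 and lowest in RF4. Astrocyte markers were also highest in RF1 at TP1, and oligodendrocyte lineage markers also lowest in RF4. Over all protein-coding promoters the median difference of RF4 from the other RFs at TP1 was -0.26 (log2). The 1 of 4 vascular markers with one ran from 1.08 in RF1 to 1.92 in RF3 at TP1 and from 0.925 in RF5 to 1.56 in RF4 at TP2. Mag and Cx3cr1 had no peak, and Mog, Pdgfra, C1qa, Flt1, Pecam1 and Tek had none at the promoter. For 10 of the 30 marker genes the start was taken as the gene end with more counts, which can be the wrong end. Among them are the neuronal markers Nefl and Camk2a. The peak taken as the Camk2a promoter had the highest median of the 7 in that sum (83.1 CPM). The part of other cell types in the results was not tested. In bulk nuclei, a site open in fewer nuclei and one less open per nucleus cannot be told apart.

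A peak had been called at each of the 8 promoters in all 50 libraries. Per kb of peak, Vamp1 had the highest median level at TP1 (27.5 CPM per kb), followed by Unc13a (24.6) and Syt1 (18.9). Stx1a (12.3), Cplx2 (12.1), Snap25 (11.4) and Vamp2 (11.1) were close to one another and Cplx1 (7.77) was lowest. The first 3 and the last kept their places at TP2, with 24.9 for Vamp1, 22.6 for Unc13a, 17.4 for Syt1 and 6.70 for Cplx1. Libraries of each TP were amplified in a batch of their own, from mice of another age and place, so that these cannot be told apart in a difference in level between TPs, which was not tested.

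**Figure D1:**
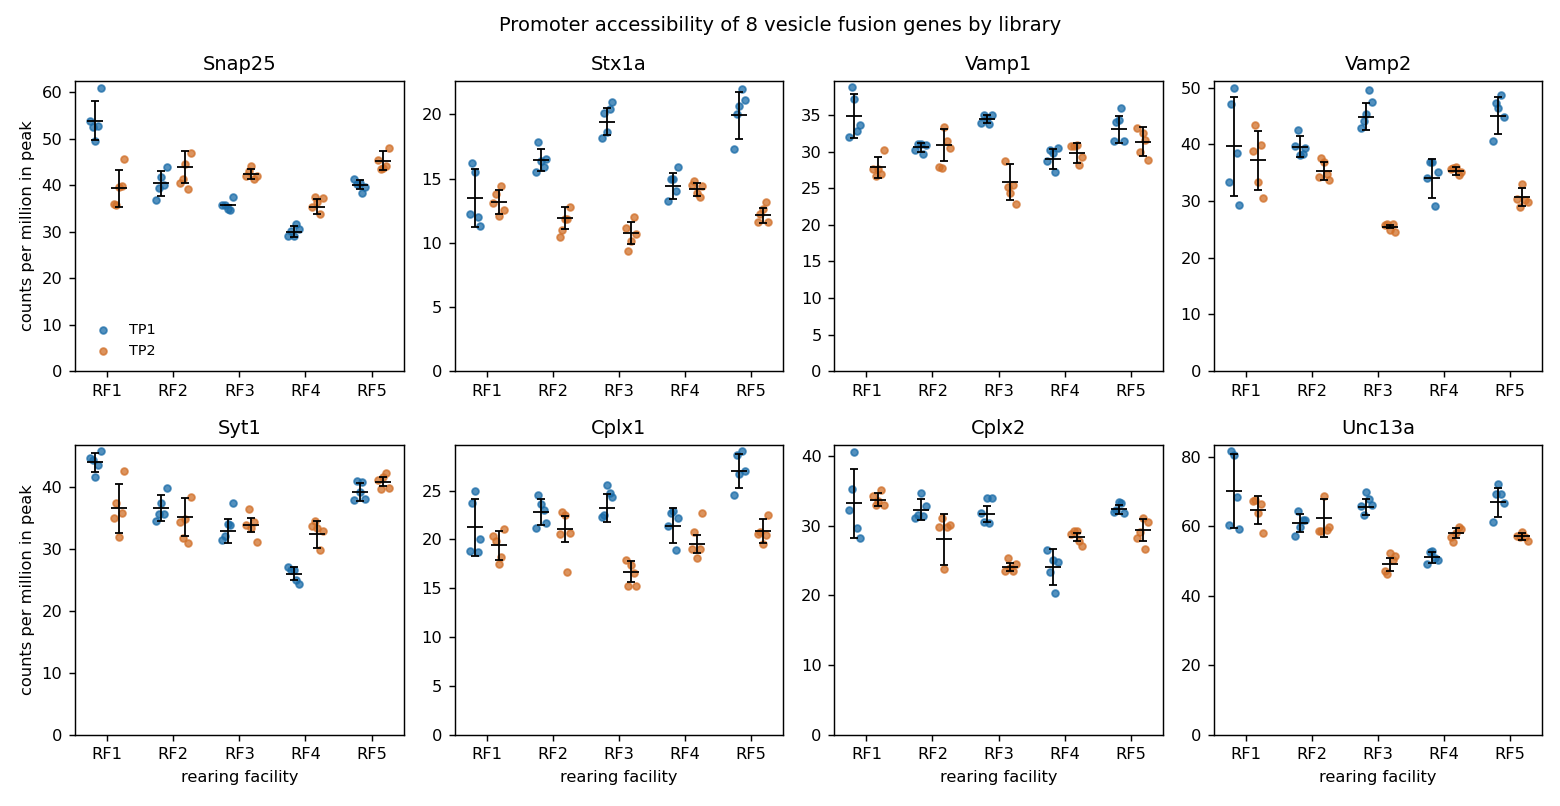
Promoter accessibility of the 8 genes in each library. The y axis is the normalised read count of the promoter peak (CPM), the x axis the rearing facility, each point 1 library of TP1 or TP2, and the bars are the mean and SD over 3 to 5 samples. For Snap25 at TP1 the 5 RF1 libraries lie above and the 5 RF4 libraries below every other library, and for Vamp2 at TP2 the 5 RF3 libraries lie below every other library of that TP.

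The first question was whether the RF of a mouse went with a difference at these genes. At TP1 accessibility depended on RF at 114 of 163 peaks (69.9%; edgeR quasi-likelihood F-test, FDR below 0.01), beside 59.1% of all peaks tested. At TP2 it did at 34 (20.9%), beside 30.8%, and 29 peaks were called at both. All 163 peaks passed the filter on low counts. A differentially accessible region (DAR), with FDR below 0.01 and a difference of at least 0.5 on the log2 scale between any pair of RFs, was found at 53 peaks at TP1 (32.5%) and 8 at TP2 (4.91%), beside 38.6% and 21% of all peaks. Without the 3 TP2 libraries closest to another RF, 64 peaks depended on RF and 20 were DARs at TP2, beside 49.5% and 36.1% of all peaks. With an offset for the mean change of each 1 Mb region the TP1 counts were 56 and 8 (45.7% and 20.6% of all peaks) and the TP2 counts 7 and 0 (9.29% and 3.58%).

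Each RF was then set against the mean of the other 4. Over the 163 peaks at TP1, RF1 was called higher at 81 (24.2% of all peaks) and lower at 16 (22.4%). In the same way RF2 was called higher at 6 (0.679% of all peaks) and lower at 0 (0.496%), RF3 was called higher at 9 (9.87% of all peaks) and lower at 47 (3.98%), RF4 was called higher at 1 (6.58% of all peaks) and lower at 27 (11.5%), and RF5 was called higher at 10 (12% of all peaks) and lower at 18 (10.9%). At TP2, RF1 was called higher at 7 (6.24% of all peaks) and lower at 2 (2.79%), RF3 was called higher at 2 (7.11% of all peaks) and lower at 19 (9.57%), RF4 was called higher at 8 (5.33% of all peaks) and lower at 5 (4.96%), and RF5 was called higher at 9 (2.46% of all peaks) and lower at 0 (2.24%). RF2 was called at 0 members in either direction at TP2 (0.692% of all peaks higher and 0.127% lower).

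All 8 promoter peaks depended on RF at both TPs, where 89.4% of 11064 promoter peaks of protein-coding genes did at TP1 and 69% at TP2. At TP2 this call was lost without replicate 2 at Stx1a and Cplx1 (edgeR adjusted p = 0.0152 and 0.0393), without replicate 3 at Vamp1 (adjusted p = 0.0122) and without replicate 4 at Syt1 (adjusted p = 0.0107). Under the region offset 4 of 8 promoters depended on RF at TP2 and with an offset fitted by loess along abundance 5, beside 8 and 6 at TP1. With libraries within sampling noise summed 8 of 8 did at TP1 and 5 at TP2, where Stx1a, Vamp1 and Cplx1 were lost (adjusted p = 0.0143, 0.0325 and 0.0225). The share of all promoters under these settings was not counted. Of all peaks 9.29% depended on RF at TP2 with the region offset, 27.8% with the loess offset and 13.7% with libraries summed. The contrasts of each RF with the others called 20 differences at these promoters at TP1 and 13 at TP2, none of them in RF2, which was called higher at 0.307% and 4.49% of all promoters. At TP1 RF1 was called higher at 4 (39% of all promoters) and lower at 2 (22.1%). RF3 was called higher at 2 (24.8%) and lower at 1 (2.9%), RF4 lower at 7 (62.6%) and RF5 higher at 4 (28.3%). At TP2 RF1 was called higher at 3 (19.9%) and RF3 lower at 6 (44%). RF4 was called higher at 1 (12%) and lower at 1 (12.4%), and RF5 higher at 2 (14.8%). Of the 33 calls, 7 kept their sign and their side of the threshold in each of the 12 alternatives run, all at TP1: Snap25 and Syt1 higher in RF1, Snap25, Syt1 and Cplx2 lower in RF4, and Stx1a and Cplx1 higher in RF5. None of the 13 calls at TP2 was kept with the region offset, and 8 were lost with the loess offset. At TP1 the region offset ended 6 of the 20 calls and the loess offset 9. With libraries within sampling noise summed 8 were lost at TP1, namely RF3 at Snap25, Stx1a and Vamp2, RF4 at Stx1a and Vamp1, RF1 at Vamp1 and Cplx1 and RF5 at Vamp2 (adjusted p from 0.0122 to 0.197). At TP2 6 were lost in the same way, namely RF4 and RF5 at Snap25, RF3 and RF4 at Stx1a, RF3 at Vamp1 and RF5 at Syt1 (adjusted p from 0.0138 to 0.0871). Without the 3 TP2 libraries closest to another RF all 13 calls at TP2 were kept. This is no independent check, since these libraries were picked by the same counts. Leaving them out raised the share of all peaks that depended on RF at TP2 from 30.8% to 49.5%.

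**Figure D2:**
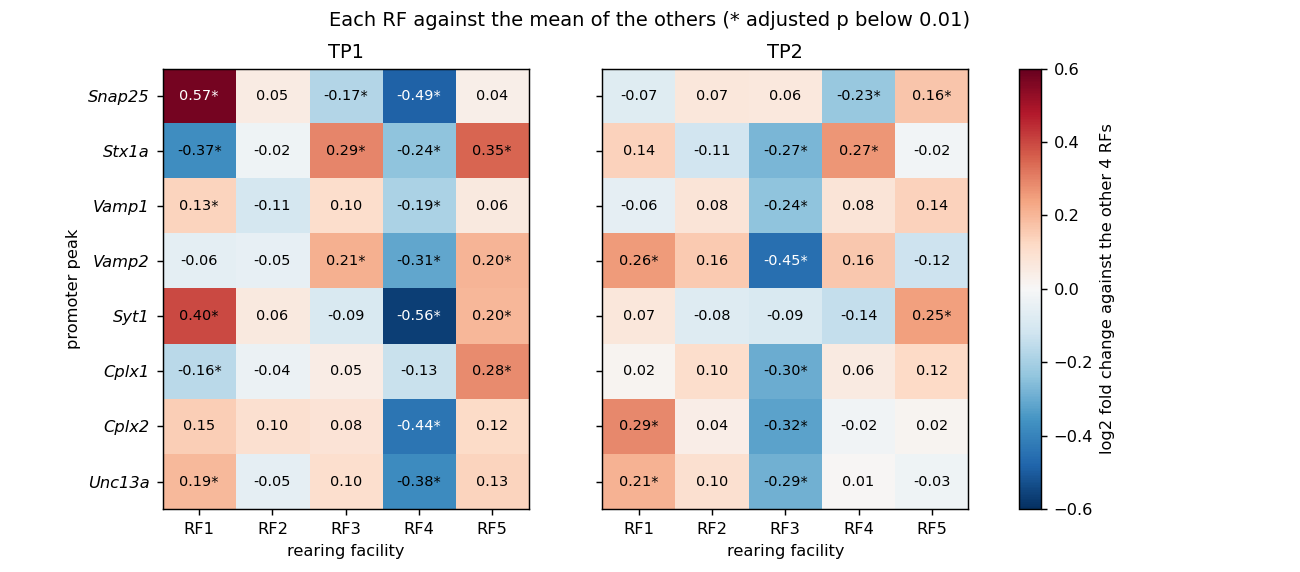
Log2 fold change of each RF (columns) against the other 4 at the promoter peak of each gene (rows) at TP1 and TP2, with an asterisk where the adjusted p was below 0.01 (edgeR). RF4 is below 0 in all 8 rows at TP1 and RF3 in 7 of 8 at TP2, but with a loess offset along abundance RF4 is above 0 at Vamp1, Vamp2, Cplx1 and Unc13a, with an offset per 1 Mb region RF3 at TP2 is above 0 at Stx1a, and with the loess offset at Syt1.

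Of the plasma membrane SNAREs, Snap25 (promoter peak at chr2:136711093-136714542) had its highest values in RF1 at TP1 with 53.8, 52.5, 49.5, 52.7 and 60.8 CPM in the 5 libraries, a mean of 53.9 CPM ± 4.17 (SD, n = 5). The RF4 libraries had 29.1, 30.03, 28.95, 31.5 and 30.5 CPM, a mean of 29.98 CPM ± 1.19 (SD, n = 4). RF1 lay above and RF4 below all other libraries, and RF2, RF3 and RF5 lay between. RF1 differed from the others by 0.57 ± 0.043 (log2 ± SE, edgeR adjusted p = 6.21e-17) and RF4 by -0.49 ± 0.047 (adjusted p = 1.33e-12). When the region offset was used, RF1 was at 0.32 (adjusted p = 2.03e-16), and with the loess offset RF4 was at -0.17 (adjusted p = 0.00492). In the order RF1, RF2, RF5, RF3, RF4, the step from RF1 to RF2 (0.42, adjusted p = 7.93e-08) and that from RF3 to RF4 (0.25, adjusted p = 0.000822) passed the test. RF2 and RF5 (adjusted p = 0.918) and RF5 and RF3 (adjusted p = 0.0307) did not. RF3 was also called lower, at -0.17 ± 0.045 (adjusted p = 0.00348), with 0.0042 (adjusted p = 0.96) under the region offset, -0.28 (adjusted p = 1.13e-05) under the loess offset and -0.17 (adjusted p = 0.0127) without the replicate block. Leaving out replicate 2 or 4 ended that call as well, at -0.18 (adjusted p = 0.0158) and -0.17 (adjusted p = 0.0275).

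Stx1a (promoter peak at chr5:135022957-135024285) had another order at TP1. The RF1 libraries had 12.3, 16.2, 15.5, 12.04 and 11.3 CPM and the RF5 libraries 17.3, 20.04, 20.6, 21.97 and 21.1 CPM. RF1 and RF4 (13.2 to 15.9 CPM) lay below all libraries of RF3 (18.2 to 20.97 CPM) and RF5. Against the other RFs, RF5 differed by 0.35 ± 0.054 (adjusted p = 1.16e-06) in edgeR, RF3 by 0.29 ± 0.055 (adjusted p = 6.1e-05), RF4 by -0.24 ± 0.057 (adjusted p = 0.000744) and RF1 by -0.37 ± 0.057 (adjusted p = 1.71e-07). With the region offset the RF1 difference at Stx1a was -0.03 (adjusted p = 0.617), that of RF3 0.067 (adjusted p = 0.306) and that of RF5 0.14 (adjusted p = 0.00419). Under the loess offset the RF4 call was lost, at -0.12 (adjusted p = 0.0765). The 211 other peaks within 1 Mb of Stx1a had a median RF1 difference of -0.34. Of the neighbours in order, RF3 and RF2 differed (0.26, adjusted p = 0.00774) and the other steps did not pass.

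The vesicle SNAREs had smaller differences at TP1. Vamp1 (promoter peak at chr6:125215057-125216217) averaged 34.9 CPM ± 2.98 (SD, n = 5) in RF1 and 29.04 CPM ± 1.36 (SD, n = 4) in RF4. RF1 differed by 0.13 ± 0.045 (adjusted p = 0.00858) in edgeR and RF4 by -0.19 ± 0.046 (adjusted p = 0.00109), which were 0.025 (adjusted p = 0.562) and, with the sign turned, 0.089 (adjusted p = 0.0696) under the loess offset. Under the region offset RF1 was at 0.31 (adjusted p = 3.38e-14). The RF1 call at Vamp1 was lost without replicate 1, 2, 3 or 4, and the difference was lowest without replicate 2, at 0.10 (adjusted p = 0.106). That of RF4 was lost without replicate 4, at -0.17 (adjusted p = 0.0146). No neighbours in the order of the RFs passed the test at either TP. At Vamp2 (chr11:69086072-69089719) the RF1 libraries spread over 29.3 to 49.9 CPM, which overlaps every other RF. RF1 was not called there (-0.057, adjusted p = 0.435), but was called lower with the loess offset, at -0.20 (adjusted p = 0.000409), and higher with the region offset, at 0.22 (adjusted p = 3.25e-08). RF4 (29.1 to 36.9 CPM) differed by -0.31 ± 0.062 (adjusted p = 0.000103), by 0.02 (adjusted p = 0.808) with the loess offset and by -0.19 (adjusted p = 4.07e-06) with the region offset. RF3 (0.21 ± 0.06) and RF5 (0.20 ± 0.06) were called higher at Vamp2 (adjusted p = 0.00687 and 0.0067). Both calls were lost without the block, at 0.21 (adjusted p = 0.0229) and 0.20 (adjusted p = 0.0189), and without replicate 1 or 4, and with both offsets. When the region offset was used, RF3 was at -0.047 (adjusted p = 0.413) and RF5 at 0.047 (adjusted p = 0.311), and with the loess offset they were at 0.11 (adjusted p = 0.0754) and 0.11 (adjusted p = 0.061). In DESeq2 RF3 was at 0.21 (adjusted p = 0.0152). Leaving out replicate 5 ended the RF3 call, at 0.18 (adjusted p = 0.0196), and leaving out replicate 2 the RF5 call, at 0.21 (adjusted p = 0.0149).

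Syt1, the calcium sensor (promoter peak at chr10:109009971-109011953), had 44.7, 44.4, 41.6, 43.7 and 45.8 CPM in the RF1 libraries of TP1 and 27.1, 26.7, 26.7, 24.99 and 24.3 CPM in those of RF4. As at Snap25, all RF1 libraries were above and all RF4 libraries below the rest. RF1 differed by 0.40 ± 0.045 (adjusted p = 6.28e-11) in edgeR and RF4 by -0.56 ± 0.048 (adjusted p = 4.61e-14), and RF3 and RF4 were the only neighbours that passed the test (0.38, adjusted p = 1.6e-06). RF5 was called higher at Syt1 (0.20 ± 0.046, adjusted p = 0.00055). Leaving out replicate 2 ended this call, at 0.18 (adjusted p = 0.0106), as did leaving out replicate 4, at 0.18 (adjusted p = 0.0126), and the loess offset, at 0.11 (adjusted p = 0.0308). When the loess offset was used, RF4 was at -0.27 (adjusted p = 5.26e-06), and RF3 was called lower, at -0.19 (adjusted p = 0.000806). Over the 50 libraries, with the mean of each TP removed, Snap25 and Syt1 had the highest Pearson correlation of the 28 pairs of promoters (0.84) and Snap25 and Stx1a the lowest (-0.36). The points share their libraries' depth and base composition.

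Of the complexins, Cplx2 (chr13:54301884-54304504) had 26.5, 23.4, 25.1, 20.4 and 24.8 CPM in RF4 at TP1, below all libraries of the other RFs. RF4 differed by -0.44 ± 0.053 (adjusted p = 1.14e-09) in edgeR, and no other neighbours in order passed than RF3 and RF4 (0.42, adjusted p = 1.54e-06). With the loess offset RF4 was at -0.18 (adjusted p = 0.00143), and with the region offset RF1 was called higher at Cplx2, at 0.30 (adjusted p = 5.76e-13). Cplx1 (chr5:108548182-108551142) was highest in RF5, at 27.02 CPM ± 1.78 (SD, n = 4), a difference of 0.28 ± 0.05 (adjusted p = 1.01e-05). RF1 was called lower at Cplx1 (-0.16 ± 0.051, adjusted p = 0.00652), but was at -0.15 (adjusted p = 0.0238) without the block, at -0.12 (adjusted p = 0.0676) without replicate 4, at -0.15 (adjusted p = 0.0327) without replicate 1, at -0.14 (adjusted p = 0.0293) without replicate 5 and above 0, at 0.083 (adjusted p = 0.0864), with the region offset. With that offset RF3 and RF4 were called lower at Cplx1, at -0.14 (adjusted p = 0.00916) and -0.17 (adjusted p = 0.000373).

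Unc13a (chr8:71670029-71672593), whose product primes vesicles, had 49.1, 52.6, 52.9, 50.9 and 50.3 CPM in RF4, below every other library of TP1, while RF1 spread over 59.3 to 81.7 CPM. RF4 differed by -0.38 ± 0.049 (adjusted p = 8.93e-09) and RF1 by 0.19 ± 0.047 (adjusted p = 0.000353). Under the loess offset Unc13a no longer depended on RF (adjusted p = 0.566) and the signs turned, to 0.046 (adjusted p = 0.344) and -0.0033 (adjusted p = 0.94). Without replicate 2 the RF1 difference at Unc13a was 0.14 (adjusted p = 0.0246), and with the region offset 0.34 (adjusted p = 1.35e-19).

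RF4 was below the other RFs at 8 of 8 promoters at TP1, 7 of them called, with a median of -0.34. Over all protein-coding promoters the median was -0.26, and 62.6% were called lower in RF4. When the loess offset was used, 4 of 8 were below 0 and 3 called lower (Snap25, Syt1 and Cplx2), with medians of -0.049 over the 8 and -0.056 over all promoters, of which 21.7% were called lower. With the region offset all 8 were called lower, with a median of -0.27, beside -0.26 over all promoters, of which 68.3% were called lower.

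**Figure D3:**
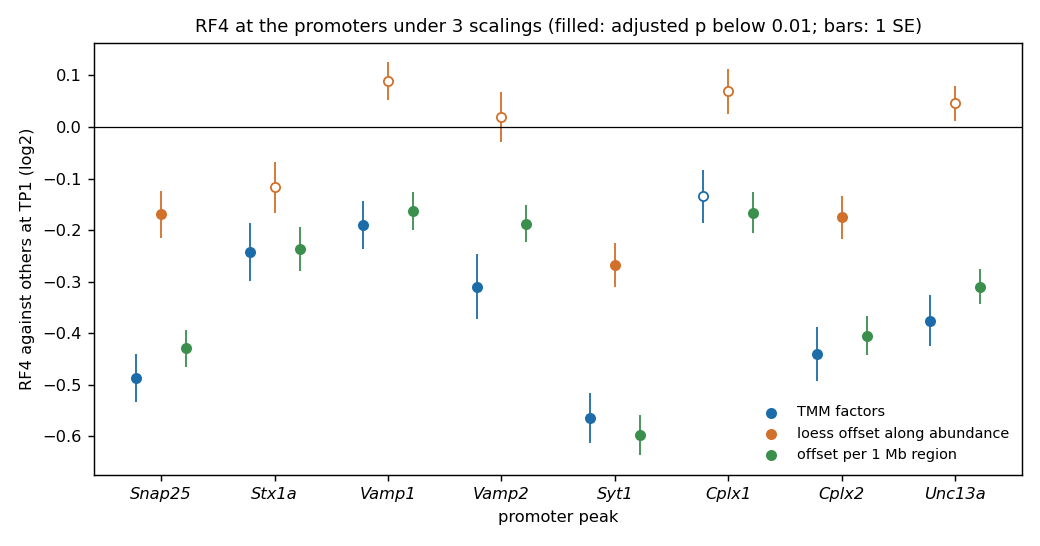
RF4 against the other RFs at TP1 (log2, y axis) at each promoter under the TMM factors, a loess offset along abundance and an offset per 1 Mb region, with bars of 1 SE. Snap25, Syt1 and Cplx2 are called below 0 under all 3 scalings, whereas Vamp1, Vamp2, Cplx1 and Unc13a lie above 0, not called, with the loess offset.

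At TP2 the lower values were in RF3, at 7 of 8 promoters, 6 of them called, with a median of -0.28. Over all promoters the median was -0.18 and 44% were called lower. At Vamp2 the RF3 libraries had 25.7, 25.9, 24.9, 25.9 and 24.6 CPM and the RF1 libraries 38.9, 43.3, 33.3, 39.9 and 30.6 CPM. RF3 lay below every other library of TP2 and differed by -0.45 ± 0.052 (adjusted p = 2.11e-10) in edgeR. Its difference from RF1 was the only DAR at these promoters at TP2, where 22% of all protein-coding promoters were DARs. RF3 was also called lower at Cplx2 (-0.32 ± 0.051), Cplx1 (-0.30 ± 0.06), Unc13a (-0.29 ± 0.043), Stx1a (-0.27 ± 0.067) and Vamp1 (-0.24 ± 0.052). Unc13a in RF3 ran from 46.2 to 52.4 CPM, below all other libraries of TP2, and Cplx2 from 23.5 to 25.3 CPM, below all libraries of RF1, RF4 and RF5 and overlapping RF2. Without replicate 2 the Stx1a difference was -0.22 (adjusted p = 0.0361). None of these 6 calls was kept with the region offset, where Vamp2 was at -0.072 (adjusted p = 0.471), Cplx2 at -0.12 (adjusted p = 0.156), Cplx1 at -0.13 (adjusted p = 0.24), Unc13a at -0.066 (adjusted p = 0.431) and Vamp1 at -0.12 (adjusted p = 0.18), and Stx1a above 0, at 0.019 (adjusted p = 0.929). With the loess offset 1 of the 6 was kept, Vamp2 at -0.25 (adjusted p = 0.000154). The other 5 were lost, with -0.13 (adjusted p = 0.0408) at Cplx2, -0.16 (adjusted p = 0.0429) at Cplx1, -0.20 (adjusted p = 0.0208) at Stx1a, -0.051 (adjusted p = 0.482) at Vamp1 and -0.019 (adjusted p = 0.775) at Unc13a. Over all promoters 14.3% were called lower in RF3 with the region offset and 18.8% with the loess offset, with medians of -0.11 and -0.054, beside -0.11 and -0.093 over the 8.

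Snap25 and Syt1 were not called in RF3 at TP2 (0.065, adjusted p = 0.291, and -0.093, adjusted p = 0.16, in edgeR). Under the loess offset Snap25 was called higher in RF3, at 0.29 (adjusted p = 8.67e-07), and lower in RF1, at -0.17 (adjusted p = 0.00531). Under the region offset Syt1 was called lower in RF3, at -0.20 (adjusted p = 0.00421), and higher in RF1, at 0.26 (adjusted p = 0.000107). Snap25 was lowest in RF4, at 35.4 CPM ± 1.61 (SD, n = 3), a difference of -0.23 ± 0.046 (adjusted p = 0.000263) in edgeR, which was lost with the region offset, at -0.11 (adjusted p = 0.202). It was called higher in RF5 (0.16 ± 0.044, adjusted p = 0.00833), a call lost without the block, at 0.16 (adjusted p = 0.0128), and without replicate 1, 2, 3 or 4, at 0.15 (adjusted p = 0.094), 0.17 (adjusted p = 0.0425), 0.18 (adjusted p = 0.0134) and 0.16 (adjusted p = 0.0705). When the region offset was used, it was at 0.044 (adjusted p = 0.665) and with the loess offset at 0.10 (adjusted p = 0.126). Syt1 was highest in RF5, with 41.2, 39.7, 41.7, 42.3 and 39.9 CPM, a difference of 0.25 ± 0.048 (adjusted p = 0.000356), 0.22 (adjusted p = 0.0228) without replicate 4 and 0.073 (adjusted p = 0.432) with the region offset. Of all promoters 14.8% were called higher in RF5 at TP2 and 12.4% lower in RF4. The RF1 libraries of Syt1 had 35.1, 37.5, 31.95, 35.9 and 42.7 CPM, and the highest, replicate 5, is 1 of the 3 libraries closest to another RF.

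RF1 was called higher at TP2 at Cplx2 (0.29 ± 0.05, adjusted p = 3.66e-05), Vamp2 (0.26 ± 0.05, adjusted p = 0.000187) and Unc13a (0.21 ± 0.042, adjusted p = 0.000299), as at 19.9% of all promoters. The Vamp2 and Unc13a calls were lost without replicate 1, 2 or 4, among them 0.20 (adjusted p = 0.0325) and 0.18 (adjusted p = 0.0263) without replicate 2. With the region offset all 3 were lost, with 0.16 (adjusted p = 0.0299) at Cplx2, 0.034 (adjusted p = 0.747) at Vamp2 and 0.10 (adjusted p = 0.117) at Unc13a. When the loess offset was used, Vamp2 and Unc13a were lost, at 0.16 (adjusted p = 0.0155) and 0.094 (adjusted p = 0.113). Neighbours in the order of the RFs passed at TP2 only in the last step, down to RF3: between RF5 and RF3 at Vamp2 and Unc13a, RF1 and RF3 at Cplx1 and RF4 and RF3 at Cplx2, by 0.26, 0.21, 0.25 and 0.24. Stx1a was called higher in RF4 (0.27 ± 0.063, adjusted p = 0.00156), with 0.25 (adjusted p = 0.0135) without replicate 1, 0.24 (adjusted p = 0.0196) without replicate 2 and 0.046 (adjusted p = 0.789) with the region offset. Of all promoters 12% were called higher in RF4 at TP2. RF5 was called higher at Vamp1 and Cplx1 with the region offset but not with TMM factors, at 0.22 (adjusted p = 0.00299) and 0.29 (adjusted p = 0.000488), and lower at Vamp2 with the loess offset but not with TMM factors, at -0.18 (adjusted p = 0.00902).

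The differences between RFs changed from TP1 to TP2 at all 8 promoters (edgeR interaction of RF and TP, FDR below 0.01), as at 84.1% of all promoter peaks. They changed at 101 of the 163 peaks (62%), as at 54.4% of all peaks. With the region offset they changed at 14 peaks (25.6% of all peaks), and Vamp2 and Cplx1 did not pass. With the loess offset Vamp1, Cplx1, Cplx2 and Unc13a did not pass, nor did Cplx1 with libraries within sampling noise summed. From TP1 to TP2 the contrast of RF1 with the others moved by -0.64 ± 0.063 at Snap25, by -0.33 ± 0.068 at Syt1 and by 0.52 ± 0.085 at Stx1a. That of RF3 moved by -0.66 ± 0.083 at Vamp2 and by -0.57 ± 0.085 at Stx1a, and that of RF4 by 0.42 ± 0.069 at Syt1, 0.41 ± 0.072 at Cplx2 and 0.38 ± 0.063 at Unc13a. Age, the move to the test laboratory and the amplification batch all changed between the TPs, and what each brought to these changes cannot be told apart.

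Most member peaks, 154 of 163, lay more than 2 kb from a start site. Of these, 105 depended on RF at TP1 (59.1% of all peaks) and 25 at TP2 (30.8%). Syt1 spans 513331 bp, and 78 of its 107 peaks depended on RF at TP1 (59.1% of all peaks) and 39 were DARs (38.6%). RF1 was above the others at 105 of 107, 68 called higher (24.2% of all peaks) and 0 lower (22.4%). RF3 was below at 105, 44 called lower (3.98% of all peaks). In 5 stretches along the gene with 20 to 23 peaks each, the median RF1 difference lay between 0.25 and 0.37. The 159 other peaks within 1 Mb had a median RF1 difference of 0.15. With the region offset, in which Syt1's own peaks take part, 27 depended on RF (45.7% of all peaks). At TP2 9 of 107 did (30.8% of all peaks), and 33 without the 3 libraries closest to another RF (49.5%). Leaving out replicate 1, 2, 4 or 5 gave 5, 5, 2 and 21.

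The Syt1 peak with the lowest p at both TPs lay 388402 bp from the start (chr10:108618696-108620709). At TP1 the RF1 libraries had 21.7, 19.1, 21.3, 22.1 and 22.9 CPM and the RF2 libraries 16.3, 16.7, 15.4, 17.6 and 16.4 CPM. RF3 ran from 10.998 to 12.6 CPM, RF4 from 10.2 to 11.4 CPM and RF5 from 10.03 to 11.7 CPM. RF1 and RF2 stood apart from each other and from the rest, which overlapped. RF1 differed by 0.81 ± 0.047 (adjusted p = 8.39e-21) in edgeR and RF2 by 0.34 ± 0.049 (adjusted p = 1.51e-05). At TP2 the peak was highest in RF3 (17.9 to 21.2 CPM) and lowest in RF4 (12.1 to 13.8 CPM), with differences of 0.33 ± 0.058 (adjusted p = 9.25e-06) and -0.43 ± 0.062 (adjusted p = 7.45e-07). RF5 was called higher there (0.24 ± 0.056, adjusted p = 0.00237), which did not pass without replicate 1, 2, 3 or 4, with 0.23 (adjusted p = 0.0348) without replicate 2, nor with libraries within sampling noise summed, at 0.23 (adjusted p = 0.0669), or with the region offset, at 0.12 (adjusted p = 0.191).

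Stx1a went the other way in RF1. RF1 was called lower at 8 of its 8 peaks at TP1 (22.4% of all peaks), with differences from -0.66 to -0.37. RF5 was called higher at 6 (12%) and RF3 at 5 (9.87%). The 211 other peaks within 1 Mb had a median RF1 difference of -0.34. The peak 11674 bp from the start (chr5:135035156-135036721) ran from 4.25 to 5.84 CPM in RF1 and from 9.13 to 10.96 CPM in RF5, above all other libraries. RF1 differed there by -0.65 ± 0.067 (adjusted p = 5.29e-12) in edgeR and RF5 by 0.52 ± 0.061 (adjusted p = 1.67e-09), and with the region offset by -0.31 (adjusted p = 9.77e-06) and 0.32 (adjusted p = 9.68e-07). At TP2 6 of 8 Stx1a peaks depended on RF (30.8% of all peaks), 1 without replicate 2 and 0 with the region offset (9.29%). The peak 15725 bp from the start (chr5:135039207-135042636) ran from 15.4 to 16.9 CPM in RF4 and from 10.5 to 13.6 CPM in RF3, without overlap. RF3 differed by -0.28 ± 0.066 (adjusted p = 0.000784), by -0.23 (adjusted p = 0.0205) without replicate 4, by -0.19 (adjusted p = 0.0245) with the loess offset and, above 0, by 0.014 (adjusted p = 0.948) with the region offset.

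**Figure D4:**
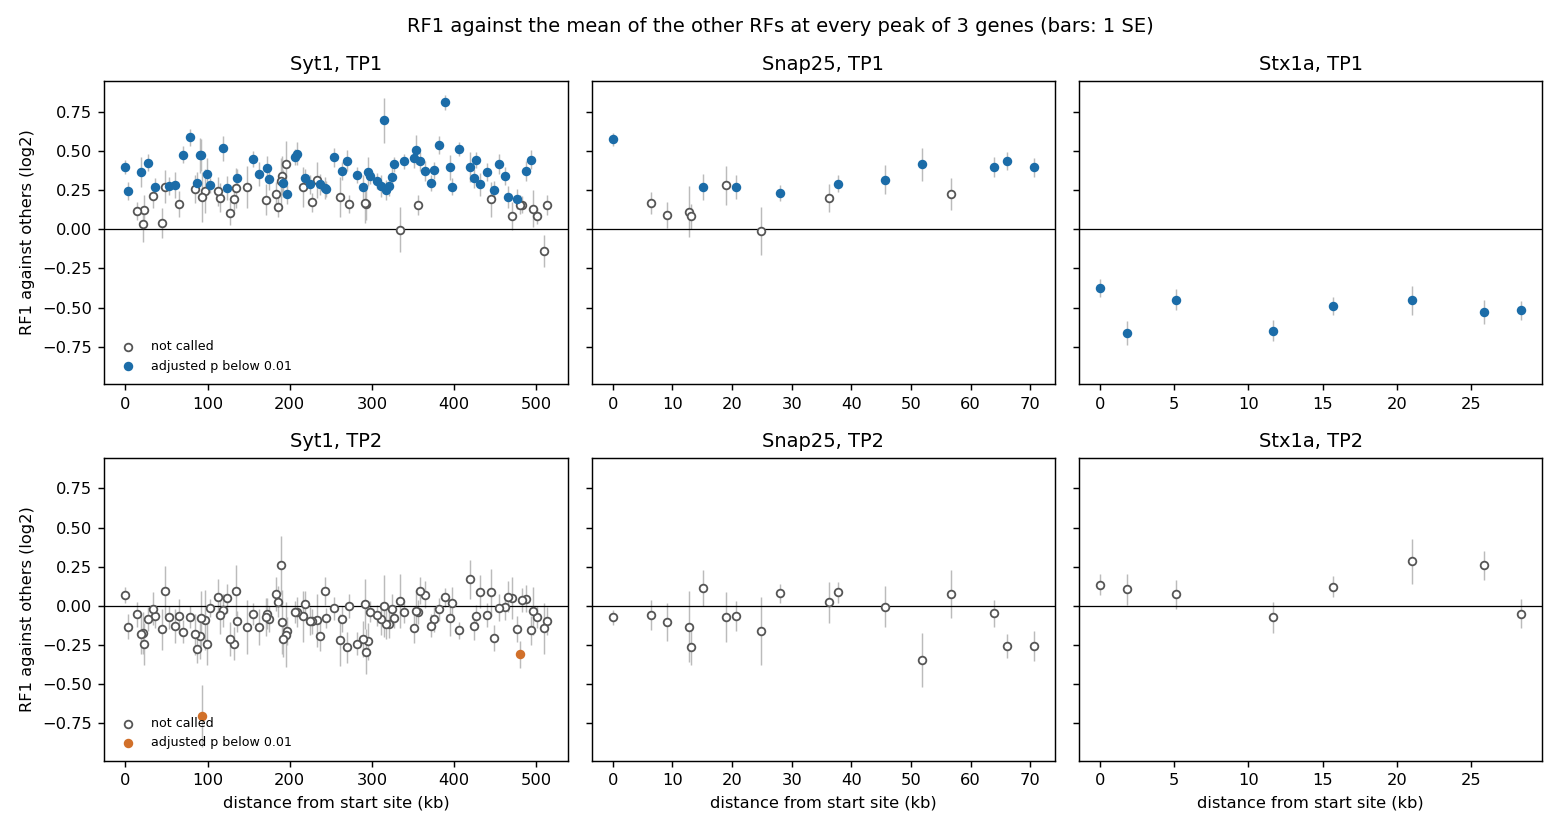
RF1 against the other RFs (log2, y axis) at every peak of Syt1, Snap25 and Stx1a by its distance from the start site (x axis) at TP1 and TP2, with bars of 1 SE. At TP1, 105 of 107 Syt1 peaks and 17 of 18 Snap25 peaks lie above 0 and all 8 Stx1a peaks below. The plotted values use TMM factors, and with the region offset the Stx1a promoter is at -0.03 at TP1.

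At Snap25, RF1 was above the others at 17 of 18 peaks at TP1, 10 called (24.2% of all peaks). The median was 0.27, beside 0.29 over the 100 other peaks within 1 Mb. At Cplx2, RF4 was called lower at 8 of 16 peaks at TP1 (11.5% of all peaks). RF3 was called lower at 7 of 16 at TP2 (9.57%), where all 16 were below 0. The number of Cplx2 peaks that depended on RF was 10 at TP1 (59.1% of all peaks) and 9 at TP2 (30.8%), and 5 and 5 without replicate 4. At Unc13a it was 4 of 7 at TP1, 2 without replicate 1, 2, 4 or 5, and 5 of 7 at TP2, 3 without replicate 4. Its peak 41535 bp from the start (chr8:71627123-71630222) ran from 31.7 to 35.8 CPM in RF3 at TP2, a difference of -0.35 ± 0.048 (adjusted p = 3.62e-08) in edgeR, of -0.13 (adjusted p = 0.109) with the region offset and of -0.12 (adjusted p = 0.0509) with the loess offset.

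The pair of RFs with the most DARs among the members at TP1 was RF1 and RF3, with 43 (26.4%, beside 20.1% of all peaks), 32 of them in Syt1, 7 in Stx1a, 3 in Snap25 and 1 in Unc13a. RF1 was higher in 35 of these. RF1 and RF4 had 23 (20.1% of all peaks), RF1 and RF5 23 (22.4%) and RF1 and RF2 0 (4.28%). RF2 had 7 with RF3 (2.16%), 3 with RF4 (2.78%) and 2 with RF5 (6%), RF4 and RF5 had 1 (4.35%), and RF3 had 0 with RF4 (1.95%) and 0 with RF5 (4%). At TP2 RF3 and RF4 had 4 (11.1%), RF1 and RF3 3 (10.1%), RF4 and RF5 2 (5.28%) and RF1 and RF5 1 (5.78%). The remaining pairs had 0 at TP2, among them RF1 and RF2 (1.43%), RF2 and RF3 (2.56%) and RF1 and RF4 (0.305%). The 8 DARs of TP2 were the Vamp2 promoter, 3 peaks of Syt1, 2 of Stx1a and 1 each of Unc13a and Cplx2.

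Of 43 other genes of vesicle release, 42 had a promoter peak, and 40 of these depended on RF at TP1 (89.4% of all promoter peaks) and 34 at TP2 (69%). RF4 was called lower at 30 and higher at 0 of them at TP1 (62.6% of all promoters lower), and RF3 lower at 23 and higher at 1 at TP2 (44% of all promoters lower). With the loess offset RF4 was called lower at 9 and higher at 4 at TP1 (21.7% of all promoters lower), and RF3 lower at 8 and higher at 7 at TP2 (18.8%). Under the region offset RF4 was called lower at 34 at TP1 (68.3%) and RF3 at 7 at TP2 (14.3%). The widest range of RF means at TP1 was at Vamp4, a SNARE of endosomes, where RF1 differed by 0.64 ± 0.045 and RF4 by -0.55 ± 0.05. It was followed by Stxbp5 (tomosyn, which binds syntaxin), with 0.66 ± 0.049 in RF1 and -0.48 ± 0.054 in RF4, and Pclo (piccolo, an active zone scaffold), with 0.53 ± 0.048 and -0.49 ± 0.052. At TP2 the widest were Rph3a (rabphilin, a Rab3 effector), Napa (alpha-SNAP, which helps to take SNARE bundles apart) and Syt5, another synaptotagmin, with RF3 differences of -0.46 ± 0.076, -0.45 ± 0.049 and -0.54 ± 0.054. Unc13c and Sv2b were the genes that did not pass at TP1.

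The promoters most like each member were sought among 11028 others, by Pearson correlation over the 50 libraries with the mean of each TP removed. They were, for Snap25, Jade1 (r = 0.96) and Kansl1l (r = 0.96), for Syt1 R3hdm1 (r = 0.93) and Glcci1 (r = 0.92), and for Stx1a Zpbp2 (r = 0.91) and Ankrd27 (r = 0.90). For Vamp2 they were Prr12 (r = 0.96) and Nlgn2 (r = 0.96), for Unc13a Zbtb7a (r = 0.95) and Pcif1 (r = 0.94), and for Cplx2 Tuba4a (r = 0.89) and Ppp1r9b (r = 0.88). The lowest best matches were Alg12 (r = 0.84) for Vamp1 and Polr2j (r = 0.82) for Cplx1. Nlgn2 lies on chromosome 11 with Vamp2, and Polr2j on chromosome 5 with Cplx1. Each match is a maximum picked from 11028 promoters, over libraries that share differences between RFs at most promoters. What made the promoters alike was not tested.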

How the data were processed

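ATAC-seq libraries of NeuN+ nuclei were available from 50 mice. The authors aligned reads with Bowtie2 to GRCm38, marked duplicates with Picard 1.140, called broad peaks per library with MACS2 2.1.4, merged those found in several libraries of a group over the 10 groups, and deposited raw read counts per merged peak. The deposited peak lists per library give a fold enrichment ratio and a −log10 q-value, of which only positions were used here. The deposited merged list gives a score from 1 to 10, read as the number of groups a peak was merged from. The deposited table named as normalized was identical to the counts and was not used.

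Peaks were assigned to genes by coordinates (overlap of at least 1 bp, or within 2 kb). The promoter peak of a gene is the one with most counts within 2 kb of its start. For Vamp2, 10 of the 43 other release genes and 10 of the 30 marker genes, the start was taken as the gene end whose peak has more counts, which can be the wrong end. Counts were fitted over the whole table with edgeR 4.0.16 (TMM, filterByExpr, robust quasi-likelihood) for each TP on RF with replicate number as block, after the processing batch in the study's own model, and over both TPs for the interaction. The labels do not say that the number is that batch. Nor do they say which libraries are of littermates, so the interaction fit took the libraries of both TPs as independent. Each RF was tested against the mean of the other 4, and RFs in 10 pairs. P-values were adjusted by Benjamini-Hochberg over all peaks of a contrast. CPM use TMM factors over 50 libraries, and correlations use log2(CPM + 0.5). The fits were run on simulated counts with changes in RF5 alone. These held no shift along abundance or by region, so they cannot show how such shifts act on the calls. Alternatives were RLE factors, no filter, DESeq2 1.42.0, no block, summed libraries, loess and 1 Mb region offsets, other windows and omitted libraries.

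The genes and lists were chosen with earlier results of these data known. Named were the 8 promoter peaks, the peak with the lowest p of a gene per TP where it was not the promoter, the 3 other release genes with the widest range of RF means per TP, and the 2 most similar promoters.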

Additional observations from a re-analysis of the deposited data

Results flagged for a closer look

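In 3 of 80 combinations of promoter and group 1 library stood far from the other 4, with a gap to its nearest neighbour of more than 0.71 of the group's range (Dixon's criterion, which chance exceeds in about 1 of 20 groups). The Unc13a promoter in TP2 RF2 replicate 3 had 68.6 CPM, where the other 4 libraries had 58.6 to 59.8 CPM. In the same library the Cplx2 promoter had 23.8 CPM, where the other 4 libraries had 29.8 to 31.2 CPM. This library held 7287029 counts, beside 20685933 to 26085195 in the other RF2 libraries of TP2. The Vamp1 promoter in TP2 RF1 replicate 5, 1 of the 3 libraries closest to another RF, had 30.3 CPM, where the other 4 libraries had 26.6 to 27.7 CPM.

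The test of the change in RF differences between TP1 and TP2 (edgeR, interaction over 50 libraries) gave an adjusted p of 2.43e-13 for the Snap25 promoter, 2.4e-13 for Stx1a, 9.02e-07 for Vamp1, 5.01e-12 for Vamp2, 1.61e-07 for Syt1, 0.000109 for Cplx1, 3.84e-08 for Cplx2 and 2.89e-09 for Unc13a. With the region offset it was 0.0621 for Vamp2 and 0.201 for Cplx1. With the loess offset it was 0.0285 for Vamp1, 0.04 for Cplx1, 0.011 for Cplx2 and 0.0928 for Unc13a. With libraries within sampling noise summed it was 0.0145 for Cplx1.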

How the results depend on the processing

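RLE factors, no filter on low counts and DESeq2 left each count over the members within 1.5 times its value. Same-numbered libraries of a TP deviated together little: the correlation of their deviations was 0.0523 on average at TP1, with 12 of 50 pairs above 0.1, and 0.00219 at TP2, with 1 of 50, so the numbers were not shown to pair the samples. Without the replicate block 110 member peaks depended on RF at TP1 and 36 at TP2, 53 and 8 were DARs, and 99 changed between TPs. Without it the RF1 call at Vamp1 at TP1 was lost, at 0.14 (adjusted p = 0.0193), beside those given with Snap25, Vamp2 and Cplx1.

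With the region offset the counts were 56 and 8 at TP1 (45.7% and 20.6% of all peaks), 7 and 0 at TP2 (9.29% and 3.58%) and 14 for the change between TPs (25.6%). The cause was not tested. With libraries within sampling noise summed 17 peaks depended on RF at TP2 (13.7% of all peaks), and with the loess offset 5 were DARs at TP2 (18.8%). Without the 3 libraries closest to another RF the TP2 counts were 64 and 20 (49.5% and 36.1% of all peaks). Leaving out 1 replicate number at a time gave 92 to 104 RF-dependent peaks and 53 to 65 DARs at TP1, 19 to 49 and 7 to 16 at TP2, 75 to 98 with a change between TPs, and 35 to 39 and 25 to 36 RF-dependent promoters of other release genes at TP1 and TP2. At TP2 20 peaks depended on RF without replicate 2, 19 without replicate 4, and 16 were DARs without replicate 5.

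Signs turned with the region offset for RF3 at Snap25 at TP1 (0.00419), at Vamp2 at TP1 (-0.0473), at Stx1a at TP2 (0.0187) and at the Stx1a peak 15725 bp from the start at TP2 (0.0136), and for RF1 at Cplx1 at TP1 (0.0833). With the loess offset they turned at TP1 for RF4 at Vamp1 (0.0889), Vamp2 (0.0196) and Unc13a (0.0464) and for RF1 at Unc13a (-0.00331).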
